A study of Mus musculus with 7 samples.

Results

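Splicing factor genes were examined across the 7 mammary glands of the series. The members are all probes, control spots left out, whose gene name in the scanner files begins with Srsf followed by a digit, with Hnrnp, with Sf3a or Sf3b followed by a digit, with Snrp or with U2af. This rule uses names alone and no measured value. It gave 126 probes for 55 genes, of 56605 probes and 37074 gene names in all. By family these were 25 probes of 11 genes for SR proteins, 50 of 20 for hnRNP proteins, 6 of 3 for U2AF, 22 of 9 for the SF3a and SF3b complexes, and 23 of 12 for the Sm proteins and the proteins of the U1 and U2 particles. The genotypes could be compared on 118 of the probes and 54 of the genes. The other 8 probes were too dim, and among them were both probes of Srsf12, which then had no tested probe.

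The animals were nulliparous adult FVB mice of 20 to 25 weeks, in diestrus. There were 3 wild-type mice and 4 PRA transgenic mice, with 1 abdominal gland per animal, lymph nodes cut away, and 1 animal per array. PRA transgenic mice are bigenic. A cytomegalovirus promoter, which is not restricted to the mammary epithelium, drives GAL-4 in them, and GAL-4 in turn activates an added gene for PR-A, the shorter form of the progesterone receptor. Gland RNA carried the dye Cy5. On the same array lay Universal Mouse Reference RNA, which pools 11 mouse cell lines and carried Cy3. The measurement is therefore the log2 ratio of gland to reference, where 0 means the same signal in both and 1 unit means a doubling. Because the tissue is a whole gland, fewer cells of a type and less RNA per cell cannot be told apart.

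Splicing cuts introns out of a new transcript and joins its exons. The U1 particle marks the start of an intron, U2AF reads its end, and the U2 particle settles on the branch point with the help of SF3a and SF3b, while rings of Sm proteins form the core of most of these particles. SR proteins bind exons and mostly favor their use, whereas hnRNP proteins coat transcripts and often hold exons back, so that the balance between them helps to set which exons are kept.

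All 7 arrays lay on 1 slide, wild-type in row 1 and PRA transgenic in row 2, so the row of the slide and the genotype cannot be told apart. No spot was saturated, and the share of probes well above background was 62.7% to 66.2% on wild-type and 56.6% to 60.2% on PRA transgenic arrays in Cy5. In Cy3, which carried the same reference RNA on every array, it was 53.2% to 54.0% and 47.2% to 50.6%. Both channels thus separated by slide row and genotype, and the part that this has in the comparisons was not tested. Markers of the labeled tissue were present, with 9 of 9 luminal, 7 of 7 basal and 7 of 7 white adipocyte markers above background on every array. Skeletal muscle markers differed strongly between glands. Their mean log2 ratio was 2.14, -0.69 and 2.95 in wild-type replicates 1 to 3 and -0.44, -0.90, -0.60 and 3.08 in PRA transgenic replicates 1 to 4. T cell markers averaged 2.05 in wild-type replicate 1 and at most 0.41 on any other array. B cell markers averaged 0.68 there and at most -1.49 elsewhere.

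In the glands most splicing factor transcripts were lower than in the pool of cell lines. Of the 118 tested probes, 76 lay below the reference on all 7 arrays, or 64.4%, against 31.9% of all 34288 probes tested. Above it on all 7 lay 11, or 9.32%, against 33% of all probes. The median log2 ratio in wild-type glands was -0.49 over the members and 0.01 over all probes. By family the wild-type median was -0.32 for hnRNP, -0.37 for SR, -0.73 for SF3a and SF3b, -0.78 for Sm and U1 or U2 proteins, and -0.79 for U2AF. Every family thus lay on the low side of the reference. Proliferation markers were lower still, with means from -3.95 to -1.69 over the arrays. The part that cell division has in the ratios was not tested.

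Sf3b4, an SF3b subunit that sits near the branch point, had the lowest ratio of all tested members. Its log2 ratios were -2.06, -2.24 and -1.94 in wild-type glands and -2.18, -1.79, -2.01 and -1.99 in PRA transgenic glands. Next came Hnrnpa1, a well-known repressor of exon use, at -1.54, -2.16 and -1.12 in wild-type and -1.90, -1.28, -1.43 and -1.62 in PRA transgenic glands on its brightest probe. Both genes lay low in every animal and their genotypes overlapped. Snrpa1, a protein of the U2 particle, and Sf3a1, an SF3a subunit, followed with wild-type means of -1.50 and -1.45 on their brightest probes.

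Snrpn stood apart from its family. It encodes SmN, the form of the core Sm protein best known from brain, and takes the place that SmB, encoded by Snrpb, has in other cells. The brightest Snrpn probe read 1.69, 1.99 and 1.90 in wild-type glands and 2.14, 1.92, 1.91 and 1.70 in PRA transgenic glands. All 3 of its probes were above the reference on every array, although for 1 of them (A_55_P1998194) the reference was above background on 0 arrays. For Snrpb the brightest probe read -0.54, -0.58 and -0.37 in wild-type and -0.45, -0.32, -0.17 and -0.42 in PRA transgenic glands, below the reference throughout. In neither gene did the genotypes separate. The log2 fold change of PRA transgenic over wild-type, here with its standard error (SE) and the adjusted p from limma over all probes tested, was 0.06 (SE 0.15, adjusted p = 0.949) for Snrpn and 0.15 (SE 0.12, adjusted p = 0.765) for Snrpb. The remaining genes with a probe above the reference on all 7 arrays were Srsf2, Srsf6, U2af1l4, Hnrnph3, Hnrnpr and Hnrnpul1. Of these, only Srsf6 was above it by its brightest probe. The brightest probes of Srsf2, U2af1l4 and Hnrnpul1 lay below the reference on all 7 arrays.

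**Figure D1:**
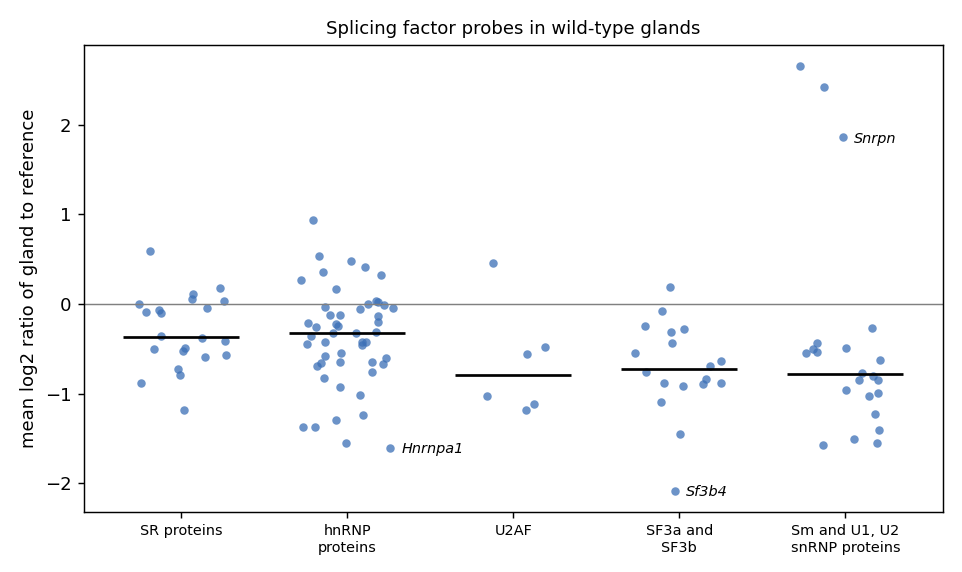
Mean log2 ratio of gland to reference in the 3 wild-type glands (y axis) for each of the 118 tested probes, by family (x axis), with black lines at family medians. Most points lie below 0, the 3 Snrpn probes lie between 1.86 and 2.66, and the Sf3b4 probe lies at -2.08.

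The main comparison asks whether extra PR-A goes with another level of splicing factor transcripts. Changes were small. Of the 118 tested probes, 14 had an unadjusted limma P under 0.05, or 11.9%, against 9.02% of all probes tested. Such probes are termed calls in what follows. They were not evenly split. Lower in PRA transgenic glands were 12 probes, or 10.2% of the members, against 4.48% of all probes, and higher were 2, against 4.54%. The 3 wild-type and 4 PRA transgenic arrays did not overlap for 20 probes with the transgenic lower, or 16.9%, against 4.53% of all probes, and for 6 with the transgenic higher, against 5.42%. After Benjamini-Hochberg adjustment over all 34288 probes no member passed 0.05, the lowest adjusted p from limma being 0.382, and 0.0117% of all probes did. The methods' t-test gave 23 members before the adjustment, or 19.5%, against 9.21% of all probes, and 0 after it. Lower among the 23 were 20, that is 20 of the 118 members, beside 1428 of 34288 probes, or 4.16%.

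The members as a whole were centered near 0. Their median log2 fold change was -0.01, with 62 values negative and 56 positive, beside 0.02 over all probes. The count of 14 rested in part on single glands. It was 9 without wild-type replicate 1 and 9 without wild-type replicate 3, or 7.63% of the members each time, against 8.24% and 7.48% of all probes. With the muscle markers as a covariate it was also 9, against 6.99% of all probes. In these settings the share of members called in either direction was near the background and no longer stood out from it. The same held without PRA transgenic replicate 4, with 11.9% of members and 12.3% of all probes. Without PRA transgenic replicate 1 the shares were 9.32% and 8.8%. In the remaining fits with 1 array left out the member share was the higher one. Without wild-type replicate 2 it was 10.2% against 7.35%. It was 9.32% against 7.59% without PRA transgenic replicate 2, and 8.47% against 6.65% without PRA transgenic replicate 3. Lower were 12 of the 14 calls without PRA transgenic replicate 4 and 8 of the 11 without PRA transgenic replicate 1. The matching lower shares of all probes were not computed for these fits. Lower calls were 8 of the 118 members without wild-type replicate 1, beside 1506 of 34281 probes, or 4.39%. Without wild-type replicate 3 they were 6 of 118, beside 1394 of 34283 probes, or 4.07%. With the covariate they were 8 of 118, beside 1270 of 34288 probes, or 3.7%. Where both channels were well above background on all 7 arrays, 108 members remained. Of these, 15 had P under 0.05, or 13.9%, against 8.97% of all such probes. Lower were 14 of the 108, beside 1000 of 24664 such probes, or 4.05%.

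A change of 1.5-fold together with P under 0.05 was found for 1 member probe, against 4.53% of all probes. This was a dim probe for Sf3b3, a scaffold subunit of SF3b (A_55_P2731406), with a log2 fold change of 0.59 (SE 0.23, adjusted p = 0.529). Its Cy5 signal was well above background on all 3 wild-type arrays but on 1 PRA transgenic array, and the reference was above background on no PRA transgenic array. In Cy5 alone the difference was 0.13. Its brightest probe gave 0.25 (SE 0.16, adjusted p = 0.699).

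The pooled SD between animals of a genotype had a median of 0.17 over the members and 0.27 over all probes. The members are bright, with a median log2 Cy5 intensity of 10.1 against 7.44, and over probes of the middle range of their brightness the medians were 0.15 for 58 members and 0.19 for 11867 probes. The families were not alike in this, with medians from 0.13 for SR proteins to 0.24 for the Sm and U1 or U2 proteins, at a median log2 Cy5 intensity of 11.0 in the latter. The range over members ran from 0.04 for Srsf4 to 0.92 for a dim Hnrnpm probe.

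**Figure D2:**
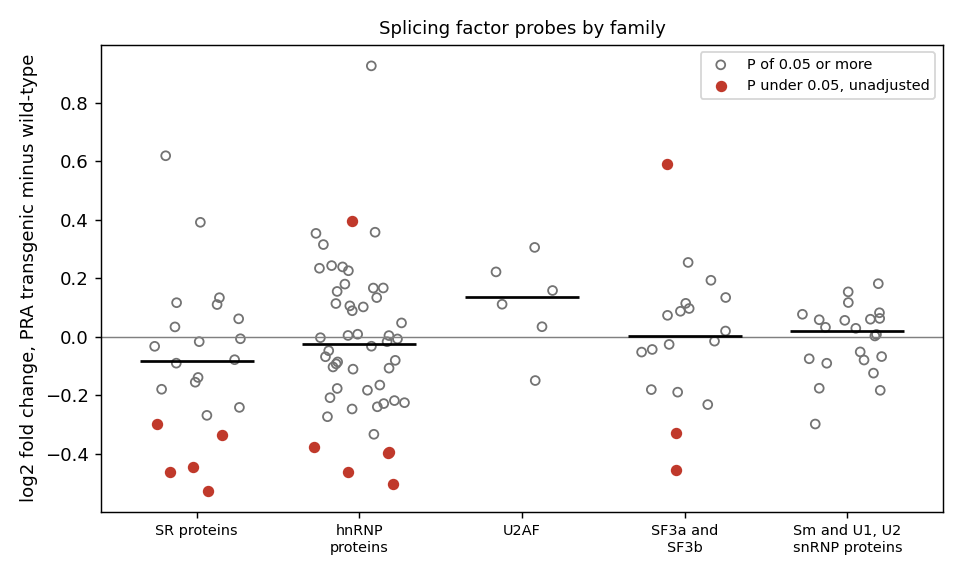
Log2 fold change of PRA transgenic over wild-type glands (y axis) for each tested probe, by family (x axis). Filled red points are the 14 with an unadjusted limma P under 0.05, open points the rest, and black lines family medians. The 5 red SR points and 5 of the 6 red hnRNP points lie below 0, and U2AF and the Sm group hold none.

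SR proteins had the most calls for their number. Of 22 tested probes, 5 had P under 0.05, or 22.7%, against 9.02% of all probes. All 5 were lower, against 4.48% of all probes, and lay in 3 genes, Srsf1, Srsf5 and Srsf9. The family median log2 fold change was -0.08, with 15 negative and 7 positive values. Whether this share differs from that of the other families was not tested.

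Srsf1, the founding SR protein, which binds exon enhancers and also acts in RNA export and translation, read -0.67, -0.49 and -0.35 in wild-type and -0.97, -1.03, -0.84 and -1.04 in PRA transgenic glands on its tested probe (A_51_P485899, chromosome 11 of mm9, 87864550 to 87864609). Every transgenic gland lay below every wild-type gland. The means were -0.50 ± 0.16 (SD, n = 3) and -0.97 ± 0.09 (SD, n = 4), a log2 fold change of -0.46 (SE 0.13, adjusted p = 0.407). Its other probe was above background on 1 array and was not tested.

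Srsf9, a small SR protein that can work against exon enhancers, was called on both of its probes, which lie on chromosome 5 of mm9 (115783026 to 115783085 and 115782747 to 115782806). The first read -0.72, -0.78 and -0.67 in wild-type and -0.98, -1.29, -1.26 and -1.15 in PRA transgenic glands, which gives a fold change of -0.45 on the log2 scale (SE 0.12, adjusted p = 0.407). On the second the values were -0.92, -0.97 and -0.74 against -1.20, -1.14, -1.20 and -1.18, a log2 fold change of -0.30 (SE 0.11, adjusted p = 0.497). Genotypes did not overlap on either probe.

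Srsf5, an SR protein whose transcript is known to respond to growth signals, had 3 tested probes, all with negative fold changes. The brightest read -0.10, 0.29 and 0.15 in wild-type and -0.47, -0.42, -0.67 and -0.09 in PRA transgenic glands. PRA transgenic replicate 4 reached the wild-type range there. Its log2 fold change of -0.53, the most negative of all tested members (SE 0.17, adjusted p = 0.462), was a call. The second probe, with no overlap, gave -0.34 (SE 0.12, adjusted p = 0.488), and the last gave -0.27 (adjusted p = 0.605).

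The other SR genes listed here had no call on their brightest probes. Srsf3, which also regulates RNA export, gave -0.24 (adjusted p = 0.746) and Srsf2, a nuclear SR protein, -0.09 (adjusted p = 0.875). For Srsf6 the value was -0.08 (adjusted p = 0.881), for Srsf7 -0.02 (adjusted p = 0.991) and for Srsf10, a repressor when dephosphorylated, 0.03 (adjusted p = 0.975). The interval of a single probe is wide, with standard errors from 0.11 to 0.21 in these 5 genes, so changes of that order may have gone undetected. A dim second probe of Srsf2, whose reference was above background on 1 array, gave 0.62 (adjusted p = 0.596). Srsf12 read 2.05, 1.30 and 1.95 in wild-type and -0.36, 0.74, 0.58 and 1.67 in PRA transgenic glands on a probe above background in Cy5 on 3 arrays and in the reference on 0, and it was not tested.

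The 250 bases before the RefSeq start of the SR genes with calls are shown because these 3 genes share a direction, on build GRCm38.p6, on the plus strand and 5′ to 3′. They lie at chr11:88047123-88047372 for Srsf1, chr12:80945249-80945498 for Srsf5 and chr5:115326927-115327176 for Srsf9. Capitals mark the GC box GGGCGG or its reverse complement CCGCCC, the letters bound by Sp1 and related factors.
Srsf1: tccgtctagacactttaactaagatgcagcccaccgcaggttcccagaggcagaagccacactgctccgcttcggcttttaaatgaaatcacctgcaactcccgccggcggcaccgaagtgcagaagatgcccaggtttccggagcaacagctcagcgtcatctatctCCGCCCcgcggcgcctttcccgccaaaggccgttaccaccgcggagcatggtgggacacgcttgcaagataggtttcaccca
Srsf5: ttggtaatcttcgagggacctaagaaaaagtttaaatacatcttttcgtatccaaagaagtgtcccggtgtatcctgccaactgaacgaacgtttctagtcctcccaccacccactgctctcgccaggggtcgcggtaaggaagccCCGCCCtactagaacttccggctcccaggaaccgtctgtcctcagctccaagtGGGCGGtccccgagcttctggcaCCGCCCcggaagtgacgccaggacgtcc
Srsf9: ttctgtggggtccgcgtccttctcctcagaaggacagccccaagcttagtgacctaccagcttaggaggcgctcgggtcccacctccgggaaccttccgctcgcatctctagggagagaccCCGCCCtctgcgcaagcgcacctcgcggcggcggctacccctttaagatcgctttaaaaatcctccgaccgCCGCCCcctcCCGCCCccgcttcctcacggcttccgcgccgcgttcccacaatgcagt
The Srsf1 window holds 1 GC box, the Srsf5 window 3 and the Srsf9 window 3. Windows were found for 48 of the 55 member genes, 66 windows in all. A GC box stood in 44 of the 66, or 66.7%, against 42.6% of 21262 windows of protein-coding genes and 32.7% of all 32851 windows of the same length. CCAAT, or ATTGG on the other strand, was in 43.9% of member windows, 35.4% of coding and 33.8% of all windows. TATAAA, or TTTATA, was in 9.09%, 11.6% and 12.4%. AGAACA, or TGTTCT, the core letters recognized by the progesterone receptor and its relatives, was in 3 member windows, those of Hnrnpd, Snrpg and Srsf6, or 4.55%, against 13.7% and 16.1%. None of the 3 windows printed above holds it. These are matches of letters and not binding sites.

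**Figure D3:**
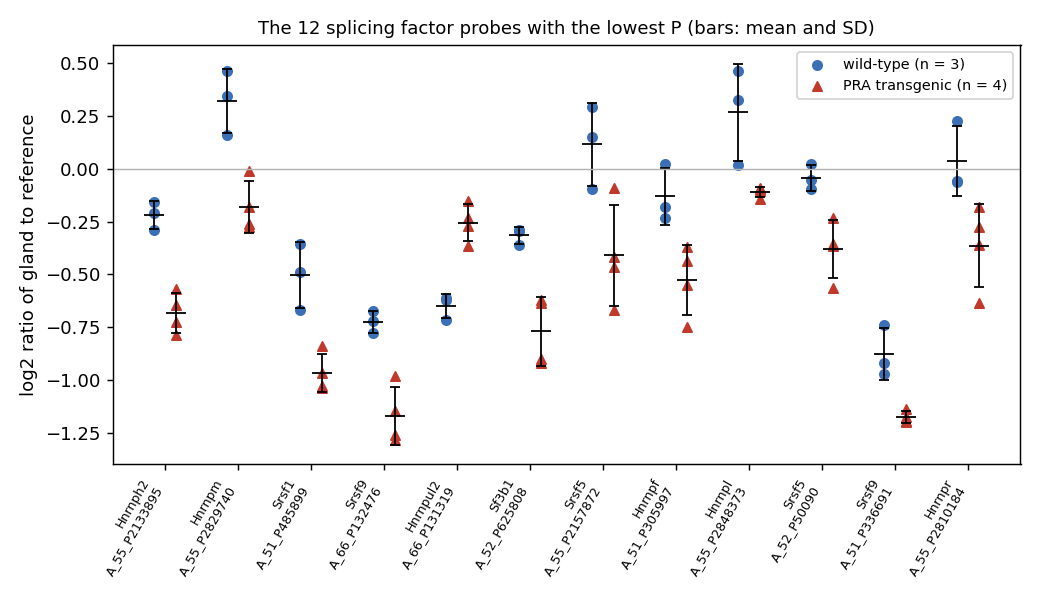
Log2 ratio of gland to reference (y axis) on each array for the 12 member probes with the lowest limma P (x axis), with wild-type glands as blue circles, PRA transgenic glands as red triangles, and bars for the mean and SD. For 11 of the 12 the PRA transgenic mean is the lower one, and Hnrnpul2 is the exception. The brightest Srsf5 probe is the one where the genotypes overlap.

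hnRNP proteins held 6 calls among 50 tested probes, or 12%, against 9.02% of all probes. Lower were 5, or 10%, against 4.48%, and higher was 1, or 2%, against 4.54%. The median log2 fold change of the family was -0.03. Among the calls was the lowest P of all members, for a probe of Hnrnph2, an X-linked relative of the G-run binding protein hnRNP H. It read -0.29, -0.16 and -0.21 in wild-type and -0.57, -0.79, -0.65 and -0.73 in PRA transgenic glands, with no overlap. The log2 fold change was -0.46 (SE 0.11, adjusted p = 0.382). The second probe of Hnrnph2, which is brighter, read -0.24, -0.25 and -0.28 against -0.27, -0.39, -0.26 and -0.28, a log2 fold change of -0.05 (SE 0.10, adjusted p = 0.934). The probes lie within the same stretch of chromosome X of mm9, at 131140864 to 131140923 and 131141486 to 131141545, and the first 30 bases of each are shown because they gave such different values for the same gene.
Hnrnph2 A_55_P2133895: gggagggtgtctttatatccagtatgattg
Hnrnph2 A_55_P2845113: gtatggaattctggggctttgatttaaacc
The probes share the accession NM_019868. GC makes up 41.7% of the first probe and 35% of the second. Which of them follows the transcript better was not tested.

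Hnrnpm, which binds GU-rich stretches and acts in epithelial splicing programs, gave similar discord. Probe A_55_P2829740 read 0.34, 0.16 and 0.46 in wild-type and -0.01, -0.26, -0.18 and -0.28 in PRA transgenic glands, which gives a fold change of -0.50 on the log2 scale (SE 0.13, adjusted p = 0.405), with no overlap. Its brightest probe gave -0.11 (SE 0.17, adjusted p = 0.891). The remaining, dim probe gave 0.93 (SE 0.59, adjusted p = 0.699), with 1.79 and 1.90 in PRA transgenic replicates 1 and 3 and no value above 0.26 in the other glands.

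Hnrnpf, a close relative of hnRNP H, read -0.18, -0.23 and 0.02 in wild-type and -0.55, -0.44, -0.37 and -0.75 in PRA transgenic glands on its brightest probe. The log2 fold change was -0.39 (SE 0.14, adjusted p = 0.475), and the second probe gave 0.23 (adjusted p = 0.678). Hnrnpl, which binds CA repeats, read 0.02, 0.32 and 0.46 against -0.14, -0.10, -0.11 and -0.09 on its brightest probe. Its log2 fold change was -0.38 (SE 0.14, adjusted p = 0.483), and its other 3 probes gave -0.25, -0.09 and 0.31. In both genes the called probe separated the genotypes.

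Hnrnpr, a relative of the RNA-binding protein SYNCRIP, had 7 tested probes. The brightest read 0.23, -0.06 and -0.06 in wild-type and -0.36, -0.28, -0.18 and -0.64 in PRA transgenic glands, which gives a fold change of -0.40 on the log2 scale (SE 0.15, adjusted p = 0.511). The other 6 ran from -0.23 to 0.24, with 5 of them positive. Hnrnpul2, a relative of the scaffold protein hnRNP U, was the one hnRNP call upward. It read -0.61, -0.72 and -0.62 in wild-type and -0.23, -0.15, -0.36 and -0.27 in PRA transgenic glands, with no overlap and a log2 fold change of 0.39 (SE 0.11, adjusted p = 0.412). Its brighter second probe gave 0.00 (SE 0.15, adjusted p = 0.997).

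The most abundant and best studied hnRNP proteins showed no call on their brightest probes. Hnrnpa1 gave 0.05 (SE 0.27, adjusted p = 0.982) and Hnrnpa2b1, which sorts RNA as well as splicing it, -0.08 (adjusted p = 0.919). Hnrnpc, which binds U-rich tracts, gave -0.11 (adjusted p = 0.848) and Hnrnpk, which binds C-rich tracts, -0.21 (adjusted p = 0.652). Hnrnpd, a regulator of RNA decay, gave -0.09 (adjusted p = 0.933), and Hnrnpu 0.00 (adjusted p = 0.997). With these standard errors of 0.12 to 0.27, small differences may have gone undetected. All 3 tested Hnrnpc probes were negative, from -0.33 to -0.11.

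In SF3a and SF3b, which hold the branch point, 3 of 18 tested probes had P under 0.05, or 16.7%, against 9.02% of all probes. Lower were 2, or 11.1%, against 4.48%, and higher was 1, or 5.56%, against 4.54%. Sf3b1, the largest SF3b subunit and the one most often mutated in cancers, had 4 tested probes. Probe A_52_P625808 read -0.30, -0.36 and -0.29 in wild-type and -0.64, -0.92, -0.62 and -0.90 in PRA transgenic glands, which gives a fold change of -0.45 on the log2 scale (SE 0.13, adjusted p = 0.412). The brightest probe also did not overlap, with a smaller change of -0.19 (SE 0.11, adjusted p = 0.664). The other probes gave -0.02 and 0.10. Sf3b6, the subunit that contacts the branch point adenosine, read 0.11, 0.12 and 0.34 against -0.20, 0.02, -0.07 and -0.30, a log2 fold change of -0.33 (SE 0.13, adjusted p = 0.53). Sf3a1 gave 0.11 (adjusted p = 0.856).

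U2AF had no call among 6 tested probes, and 5 of the 6 log2 fold changes were positive. U2af2, the large subunit that reads the pyrimidine tract, averaged -1.02 ± 0.04 (SD, n = 3) in wild-type and read -0.96, -0.64, -0.71 and -0.89 in PRA transgenic glands. The genotypes did not overlap and the log2 fold change was 0.22 (SE 0.12, adjusted p = 0.651). U2af1, the small subunit, gave -0.15 (SE 0.14, adjusted p = 0.809).

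The Sm and U1 or U2 particle proteins had no call among 22 tested probes, and their median log2 fold change was 0.02. All values lay between -0.30 and 0.18. Snrpa, a U1 protein that binds its RNA directly, gave -0.05 (adjusted p = 0.959), and Snrpd1, a core Sm protein, -0.08 (adjusted p = 0.948). Snrpb2, a protein of the U2 particle, was the 1 probe of the family without overlap, at -0.30 (adjusted p = 0.56).

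What this family showed was variation between animals that did not follow genotype. Wild-type replicate 3 was the highest of the 7 arrays for 13 of the 22 probes, and PRA transgenic replicate 4 the lowest for 9. The array medians were -0.85, -0.97 and -0.49 in wild-type and -0.92, -0.60, -0.67 and -1.01 in PRA transgenic glands. Over all 118 members the same arrays were the most frequent extremes, with wild-type replicate 3 highest for 45 and PRA transgenic replicate 4 lowest for 35. How often these arrays were the extremes over all probes tested was not counted. Whether the pattern is particular to the members therefore cannot be told. The array medians over all probes ran from -0.02 in wild-type replicate 3 to 0.09 in PRA transgenic replicate 1, with 0.03 in PRA transgenic replicate 4. The mean of the proliferation markers was -3.17, -3.95 and -1.69 in wild-type and -3.65, -2.20, -2.85 and -2.97 in PRA transgenic glands. Wild-type replicate 3 was the highest there and wild-type replicate 2 the lowest, while PRA transgenic replicate 4 lay in the middle. The means of the muscle markers are given above for each gland. Both marker lists were set beside the family after the values had been seen, and their part in the pattern was not tested.

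**Figure D4:**
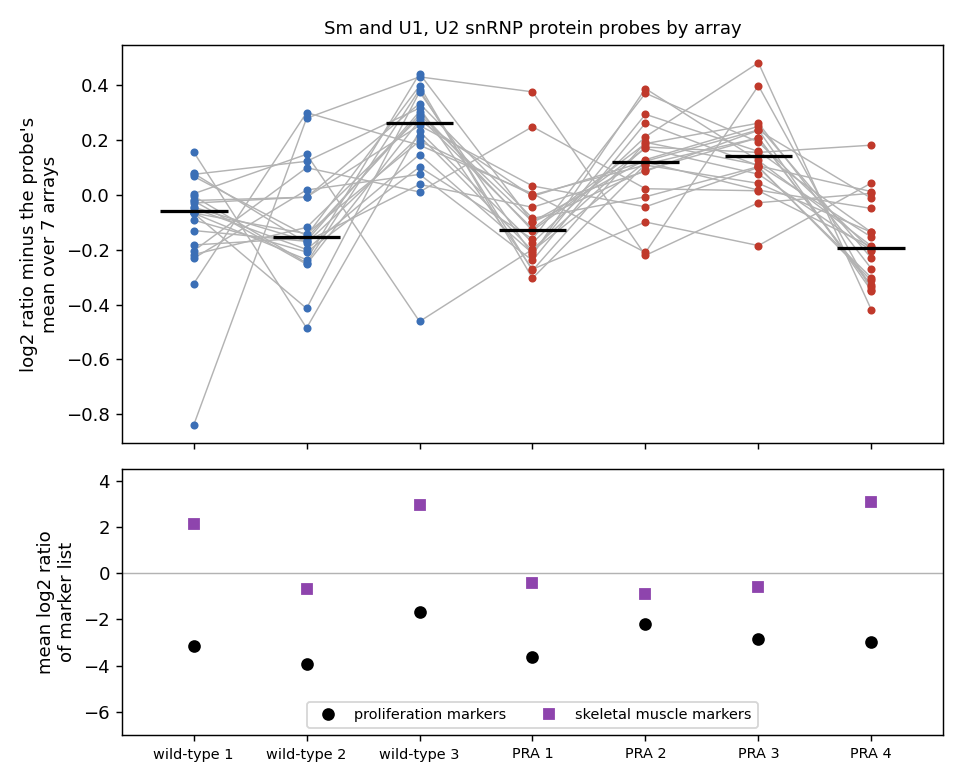
Top, log2 ratio of each of the 22 Sm and U1 or U2 protein probes minus its own mean over 7 arrays (y axis), by array (x axis), with grey lines joining a probe and black lines at array medians. Bottom, mean log2 ratio of the proliferation and skeletal muscle marker lists on the same arrays. Wild-type replicate 3 is highest for 13 of the 22 probes, and PRA transgenic replicate 4 is lowest for 9.

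Probes of the same gene often differed. Of 38 genes with more than 1 tested probe, 19 had fold changes of the same sign on all of them and 19 had both signs. The median distance between a gene's highest and lowest log2 fold change was 0.18, and the widest was 1.43, for Hnrnpm. Kinds of probe differed as well. The 95 probes assigned to an NM accession, a curated RefSeq mRNA, had -0.05 as their median log2 fold change, with 39 positive values and 12 of 13 calls lower. The 23 probes assigned to other records had a median of 0.10, with 17 positive values and 1 call, which was higher. The latter are also dimmer, with a median log2 Cy5 intensity of 6.54 against 10.8, and the part that brightness has in this was not tested. All probes of the array were not split in this way, so whether the difference is particular to the members cannot be told.

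**Figure D5:**
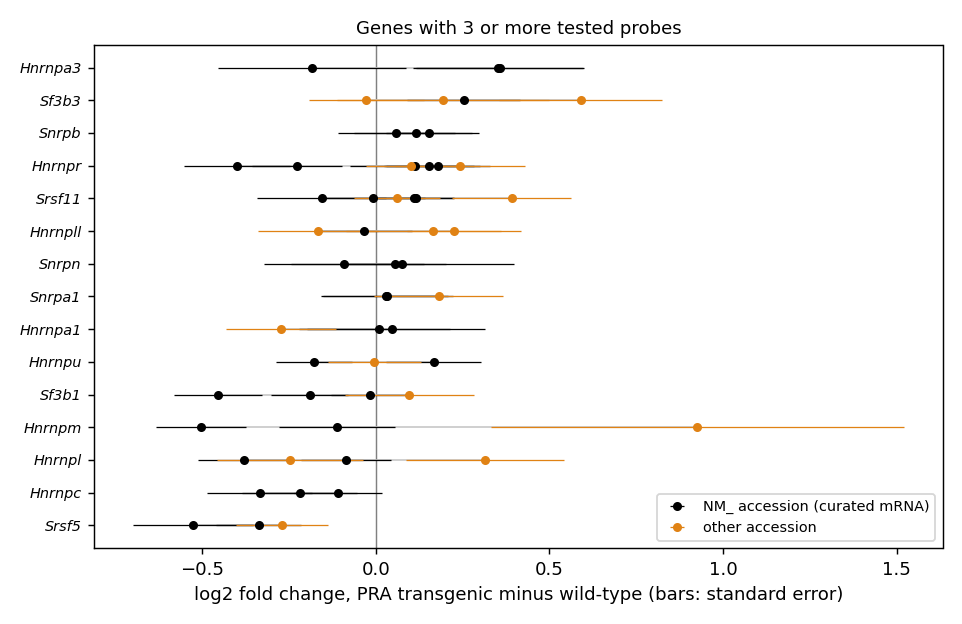
Log2 fold change of PRA transgenic over wild-type glands with its standard error (x axis) for every tested probe of the genes with 3 or more (y axis). Black points are probes of NM accessions and orange points those of other accessions. All 3 probes of Srsf5 and of Hnrnpc lie below 0, while the probes of Hnrnpm run from -0.50 to 0.93.

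Other genes of the spliceosome and of splicing control were read from a list of 137 genes, each by its brightest probe. Of 135 tested, 10 had P under 0.05, or 7.41%, against 7.95% of all 22486 genes read in this way, so the share was near the background. Of the 10, 7 were lower and 3 higher. None reached 1.5-fold or an adjusted p under 0.05 in limma, where the lowest was 0.425, and the methods' t-test gave 18 at an unadjusted P under 0.05, or 13.3%, against 8.53% of all genes by the same test. The lower genes, named after their values were seen, included Bcas2 of the Prp19 complex at -0.47, Srrm2, a matrix protein of nuclear speckles, at -0.41, and Clk4, a kinase of SR proteins, at -0.35. The higher ones were Crnkl1, a protein of the catalytic spliceosome, at 0.46, Prpf39 of the U1 particle at 0.32, and Tia1, which helps U1 to bind, at 0.32. Of the 8 SR protein kinases 1 was called, and of 41 other splicing regulators 2. As among the members, most of these genes were below the reference in wild-type glands, 100 of 135.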

How the data were processed

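The authors deposited 1 scanner file per array from Agilent Feature Extraction (version 12.0 in the submitters' processing notes, 11.5.1.1 in the file headers), whose processed intensity values had been corrected for background and dye. The authors also deposited a table of log2 values, which comparison with the scanner files showed to be Cy5 over Cy3, centered for each probe on the median of the 7 arrays. Its direction and scale matched the scanner files, with 100% of values within 0.01. The methods name GeneSpring GX and an unpaired t-test.

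Here the log2 ratio of processed Cy5 to Cy3 was taken after removal of control and outlier spots, with the mean over spots of the same probe. A probe was tested if its Cy5 signal was well above background on each array of 1 genotype or both, which held for 34288 of 56605 probes and not for 22317. The genotypes were compared in R 4.3.3 with limma 3.58.1 (lmFit, eBayes), and P was adjusted over all probes tested after Benjamini and Hochberg. Tables and figures were made in Python 3.11.15 with numpy 2.4.6, pandas 2.3.3 and matplotlib 3.10.9. The limma fit and the t-test were also run on simulated log ratios with known changes. Loading, filtering and normalization were not tested in this way. Positions of probes are those of the files, on mm9, and all 126 member names equal the current RefSeq symbol, 99 matched by accession and 27 by symbol. Promoter windows are from RefSeq on GRCm38.p6, and the 250 bases before the start were used. Exon positions of the probes were not analysed here.

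The members, the list of other splicing genes, the marker lists and the alternatives were chosen with earlier results of these data known. Genes are named if they are the brightest tested probe of a main gene of each role, among the 12 lowest P of the members, another probe of such a gene, or a listed splicing gene with P under 0.05 and 1.5-fold, of which there was none. Others were named after their values were seen. These include Sf3b3, Sf3b4, Sf3b6, Snrpa1, Snrpb2 and the dim Srsf2 probe. Alternatives were normexp (offset 50) with loess, the deposited table, a stricter filter on dim probes or none, Cy5 alone scaled to its 75th percentile, quantile normalization, the methods' t-test, an intensity trend, muscle markers as a covariate, the replicate number as a block and each array left out. The number of arrays limits the precision, and no array had the dyes swapped.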

Additional observations from a re-analysis of the deposited data

Results flagged for a closer look

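Among 54 groups of arrays examined for a sample far from the others, 2 passed the limit, where chance alone gives about 2.7. In the 4 PRA transgenic arrays of the brighter Hnrnph2 probe (A_55_P2845113) the gap to the nearest array was 0.8291 of the whole range, just above the limit, since PRA transgenic replicate 2 read -0.39 and the others -0.28 to -0.26. In those of an Hnrnpr probe (A_55_P2402134) it was 0.929, since PRA transgenic replicate 3 read 0.75 and the others 0.52 to 0.53. Neither probe had a call.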

How the results depend on the processing

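The number of members with an adjusted p under 0.05 was 0 under all alternatives. The count of 14 with an unadjusted P under 0.05 became 23 (20 lower) with the methods' t-test, 7 (5 lower) with the replicate number as a block and 9 (8 lower) with muscle markers as a covariate, or 19.5%, 5.93% and 7.63% of the members against 9.21%, 9.83% and 6.99% of all probes. It lay between 9 and 14 with each array left out. The shares in those fits were 7.63% to 11.9% of the members and 6.65% to 12.3% of all probes. The other alternatives kept the count within 1.5 times. It was 17 (15 lower) with normexp and loess and 17 (15 lower) with the intensity trend. With quantile normalization it was 18 (14 lower), and in Cy5 alone 16 (14 lower). These were 14.4%, 14.4%, 15.3% and 13.6% of the members, against 7.55%, 8.87%, 10.8% and 8.73% of all probes. With no filter it was 16 (14 lower), or 12.7% against 9.11%. The share of all probes called lower was not computed for normexp and loess, the intensity trend, quantile normalization, Cy5 alone, no filter or the block. The lower counts of these fits therefore have no background beside them. The count of 1 at 1.5-fold became 0 with normexp and loess, with the stricter filter, in Cy5 alone, with the methods' t-test, with the intensity trend and with the muscle covariate, became 2 with no filter and 2 with the block, and lay between 0 and 2 when single arrays were left out. For the other splicing genes the count of 10 became 18 with the methods' t-test, 3 with the block and 4 with the muscle covariate. These were 13.3%, 2.22% and 2.96% of the listed genes, against 8.53%, 9.12% and 5.96% of all genes. With single arrays left out the count lay between 4 and 9, or 2.96% to 6.67%, against 5.77% to 11.3% of all genes. It was 5, 4 and 5 without wild-type replicate 3 and PRA transgenic replicates 3 and 4. The shares there were 3.7%, 2.96% and 3.7%, against 6.55%, 5.77% and 11.3% of all genes. The members' median of -0.01 moved by less than the SD of the array medians, 0.12, and turned to 0.03 with the block, 0.05 without wild-type replicate 3, 0.03 without PRA transgenic replicate 4 and 0.0048 without PRA transgenic replicate 1. Same-numbered samples of both genotypes correlated at 0.10, -0.30 and 0.04 in their deviations, and differently numbered ones at -0.30 to 0.38. No pairing by number was seen, but so few values cannot exclude one. The block also leaves PRA transgenic replicate 4 without a partner.

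Over the 12 probes with the lowest P, 170 of 204 alternative values kept direction and side of the threshold, 34 lost the threshold and 0 turned. Over all 48 named probes, 10 of 814 alternative values passed the threshold where the reported value did not, 3 of them for the last Srsf5 probe. Probes that turned were all near 0. With the block the log2 fold change became 0.083 for Srsf7, 0.018 for Hnrnpd, 0.008 for Snrpa and 0.02 for Snrpd1, and -0.047 for the second Hnrnpul2 probe. That probe also became -0.0014 with normexp and loess, -0.073 in Cy5 alone and -0.0082 with the muscle covariate, which gave -0.022 for Srsf10 and -0.016 for Snrpn. Quantile normalization gave -0.065 for Hnrnpa1, 0.08 for Hnrnpu and 0.03 for the brighter Hnrnph2 probe, and Cy5 alone gave 0.018 for Snrpd1 and 0.00026 for the brightest Hnrnpm probe. With each array left out the ranges that crossed 0 were -0.15 to 0.11 for Srsf7, -0.027 to 0.14 for Srsf10, -0.23 to 0.29 for Hnrnpa1, -0.18 to 0.02 for Hnrnpa2b1, -0.27 to 0.03 for Hnrnpd, -0.061 to 0.074 for Hnrnpu, -0.15 to 0.084 for Snrpa, -0.22 to 0.12 for Snrpd1, -0.031 to 0.13 for Snrpn, -0.047 to 0.026 and -0.058 to 0.19 for Sf3b1 probes A_52_P220190 and A_55_P2721568, -0.18 to 0.0055 for Hnrnpl probe A_55_P2339650, -0.21 to 0.033 for the brightest Hnrnpm probe and -0.09 to 0.13 for the second Hnrnpul2 probe. The causes were not tested.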
